A study of Mus musculus with 10 samples.

Results

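The genes described here are 10 heat shock proteins, cochaperones and their transcription factor, taken from the gene table of the series by symbol: *Hspa1a*, *Hspa1b*, *Hspb1*, *Hspa8*, *Hsp90aa1*, *Hsp90ab1*, *Hsph1*, *Dnajb1*, *Hsf1* and *Bag3*. All 10 are among the 15900 genes listed, and all 10 passed the filter on low values. Cap analysis of gene expression (CAGE), which sequences the 5′ ends of capped RNAs, was applied to whole hippocampi of male ICR mice that were 9 to 10 weeks old at injection. Values are CPM, the CAGE tags of a gene scaled to the tags on all listed genes, and since each tag is the end of 1 RNA they are not divided by gene length. There were 5 groups of 2 mice. The pre-SE mice are untreated in the labels, and the study's methods give control mice saline in place of pilocarpine (PILO). The SE 6 h and SE 2 days mice were taken at these times after status epilepticus (SE) brought on by PILO, after methyl scopolamine, and stopped with diazepam. The SE + LEV 6 h and SE + LEV 2 days mice also received levetiracetam (LEV), an antiseizure drug that binds the synaptic vesicle protein SV2A, 1 time or 5 times by mouth after the diazepam. SE was defined by generalized convulsive seizures, so every mouse outside the pre-SE group carries PILO, seizures and diazepam together, and these cannot be told apart here.

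Heat shock proteins are chaperones that bind unfolded proteins and either refold them or pass them on for degradation. In resting cells the transcription factor HSF1 is held inactive by chaperones. When misfolded proteins draw these chaperones away, HSF1 binds heat shock elements, which are repeats of GAA in alternating orientation, and drives the inducible chaperone genes. In brain, inducible HSP70 and HSP27 (the products of *Hspa1a* and *Hspa1b*, and of *Hspb1*) are widely used as markers of cells under stress, HSP27 mostly in astrocytes.

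CAGE reads the starts of RNAs, so the stretches just before the starts of 4 inducible members are shown first. They come from the RefSeq promoter table (GRCm38.p6), which holds 6 of the members and not *Hspa8*, *Hsp90aa1*, *Hsp90ab1* or *Hsf1*. Capitals mark an inverted GAA pair, GAANNTTC or TTCNNGAA, the core of a heat shock element. Each pattern, with N any base, reads the same on both strands, but the marked bases themselves need not. Each stretch runs from 150 bases to 1 base before the annotated start, 5′ to 3′ on the strand of the gene.
Hspa1a, chr17:34972157-34972306, minus strand: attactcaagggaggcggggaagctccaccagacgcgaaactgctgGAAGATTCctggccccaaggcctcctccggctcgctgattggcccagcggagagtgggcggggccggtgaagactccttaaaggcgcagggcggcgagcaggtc
Hspa1b, chr17:34959239-34959388, minus strand: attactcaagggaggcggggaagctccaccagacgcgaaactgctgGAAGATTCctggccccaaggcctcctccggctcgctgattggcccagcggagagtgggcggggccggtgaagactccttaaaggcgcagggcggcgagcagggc
Hspb1, chr5:135887769-135887918, plus strand: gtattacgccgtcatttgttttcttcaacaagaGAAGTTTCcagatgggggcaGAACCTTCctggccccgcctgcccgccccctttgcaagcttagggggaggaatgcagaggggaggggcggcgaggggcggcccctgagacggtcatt
Hsph1, chr5:149636337-149636486, minus strand: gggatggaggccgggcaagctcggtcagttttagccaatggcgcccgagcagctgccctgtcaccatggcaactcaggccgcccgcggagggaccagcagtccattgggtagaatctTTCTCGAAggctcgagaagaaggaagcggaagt

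In the window from 250 bases before to 50 bases after the start, *Hspa1a* and *Hspa1b* held 1 such pair each, beginning 104 bases before the start. *Hspb1* held 2, at 117 and 97 bases before the start. *Hsph1* held 3, at 33 bases before and at 37 and 42 bases after its first annotated start, and the latter pair overlap. *Bag3* held 1, at 43 bases after the start, and *Dnajb1* held none at either of its annotated starts. Of all 32851 RefSeq promoters of this length, 15.1% held at least 1 pair, 1.96% at least 2 and 0.256% at least 3. The windows of *Hspa1a* and *Hspa1b* differ at 4 of 300 bases. With positions counted from 1 at the 5′ end of the window and the *Hspa1a* base first, these are C44T, T47C, T249G and C276T, all of them outside the motif.

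That likeness bears on the measurement. In the mm9 annotation, the build to which the tags were mapped, *Hspa1a* lies at chr17:35106144-35109069 and *Hspa1b* at chr17:35093381-35096183, both on the minus strand. The first 75 bases of the annotated *Hspa1a* transcript, which is the length of a read, match the *Hspa1b* locus at 75 of 75 bases. Those of an annotated *Hspa1b* transcript match the *Hspa1a* locus at 74 of 75. The difference C276T lies 26 bases after the RefSeq start, which need not be the start in the mm9 annotation. Which of the genes a read without a difference was given to depended on the mapping, and the values of each are uncertain for this reason. The gene model Gm20481 on the opposite strand overlaps *Hspa1a*. *Hspa8* (chr9:40609067-40613283), *Hsp90aa1* (chr12:111928815-111940938) and *Hspb1* (chr5:136363789-136365433) also have near-identical pseudogene copies in the table, which are described with the results. The small nucleolar RNA genes *Snord14c*, *Snord14d* and *Snord14e* lie within *Hspa8* on its own strand. *Hsp90ab1* lies at chr17:45704724-45710220, *Hsph1* at chr5:150416862-150438951, *Dnajb1* at chr8:86132074-86135801, *Hsf1* at chr15:76307865-76331402 and *Bag3* at chr7:135667097-135690491.

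The 10 libraries held from 10540698 to 51710968 tags as far as the deposited values allow this to be worked out, so that 3 tags were worth 0.058 to 0.285 CPM, and every value of the 10 genes was above this limit. Markers of neurons, astrocytes, microglia, endothelial cells and oligodendrocytes were all present in every group. The summed level of 8 neuronal markers was 9207 to 10301 CPM in pre-SE and 5077 to 6277 CPM in SE 2 days mice, and that of 7 microglial markers 372 to 437 and 865 to 1020 CPM. Choroid plexus markers (4 of 6 were listed) ran from 8.72 to 4025 CPM, and differed widely within 4 of the 5 groups. In whole tissue, fewer cells of a type and less RNA per cell cannot be told apart.

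The inducible HSP70 gene *Hspa1a* had the widest range of the 10 genes. It stood at 47.6 and 41.5 CPM in the pre-SE mice, at 10861 and 1278 CPM at 6 h after SE, and at 63.3 and 32.7 CPM in the mice given LEV. At 2 days it stood at 126 and 533 CPM after SE and at 38.1 and 22.0 CPM after SE with LEV. Both SE groups lay above all 6 mice of the other groups. In the first SE 6 h mouse it was gene number 2 of the whole table by level and took 1.09% of all tags, whereas it was number 4908 and 5307 in the pre-SE mice.

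*Hspa1b*, which encodes a nearly identical HSP70, was far lower. It was at 6.14 and 3.87 CPM in pre-SE, 36.2 and 8.09 CPM in SE 6 h, 2.76 and 1.71 CPM in SE + LEV 6 h, 2.42 and 3.30 CPM in SE 2 days, and 2.33 and 3.61 CPM in SE + LEV 2 days mice. The SE 6 h mice alone were above the pre-SE mice, and every later or LEV-treated mouse was below both pre-SE mice. *Hspa1a* took 88.6 and 91.5% of the tags of the pair before SE and 99.7 and 99.4% at 6 h after it.

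*Hspb1*, the gene of the small heat shock protein HSP27, kept another time course. It was at 2.07 and 4.18 CPM in pre-SE and at 135 and 27.1 CPM in SE 6 h mice. At 2 days after SE it was still at 93.7 and 131 CPM. With LEV it was at 8.21 and 7.87 CPM at 6 h, and at 101 and 5.63 CPM at 2 days, so that 1 mouse of the latter group was within the range of the SE mice and the other near the pre-SE mice.

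*Hsph1*, which encodes the HSP110 nucleotide exchange factor of HSP70, was at 350.5 and 357 CPM in pre-SE, 3806 and 692 CPM in SE 6 h and 408 and 305 CPM in SE + LEV 6 h mice. At 2 days it was at 468 and 628 CPM after SE and 436 and 228 CPM with LEV. *Dnajb1*, an HSP40 that delivers clients to HSP70 and stimulates its ATPase, was at 58.5 and 71.4 CPM in pre-SE and 728 and 398.5 CPM in SE 6 h mice. It was at 116 and 66.3 CPM in SE + LEV 6 h, 65.5 and 82.1 CPM in SE 2 days and 52.3 and 61.7 CPM in SE + LEV 2 days mice. Both genes stood highest in the SE 6 h mice, and *Dnajb1* lay between 52.3 and 116 CPM in the other 8 mice.

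*Bag3*, a cochaperone that links HSP70 to small heat shock proteins and to selective autophagy, was at 9.93 and 10.3 CPM in pre-SE mice. It was at 74.6 and 46.6 CPM in SE 6 h, 39.1 and 36.3 CPM in SE + LEV 6 h, 38.5 and 52.4 CPM in SE 2 days and 44.4 and 16.6 CPM in SE + LEV 2 days mice. All 8 mice after SE were above both pre-SE mice.

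The chaperone genes *Hspa8*, *Hsp90aa1* and *Hsp90ab1* were abundant throughout. *Hspa8*, the gene of the constitutive HSC70, was at 854 and 543 CPM in pre-SE, 2997 and 834 CPM in SE 6 h, 891 and 466 CPM in SE + LEV 6 h, 575 and 662 CPM in SE 2 days and 452 and 485 CPM in SE + LEV 2 days mice. Only the first SE 6 h mouse stood apart. *Hsp90aa1*, the stress-responsive cytosolic HSP90, was at 378 and 266 CPM in pre-SE and 1159 and 717 CPM in SE 6 h mice, and between 229 and 437 CPM in the 6 other mice. *Hsp90ab1*, the constitutive HSP90, stayed between 1189 and 2229 CPM in all 10 mice. *Hsf1* stayed between 20.5 and 30.3 CPM, the narrowest range of the 10 genes, and its groups overlapped at 6 h and at 2 days after SE.

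**Figure D1:**
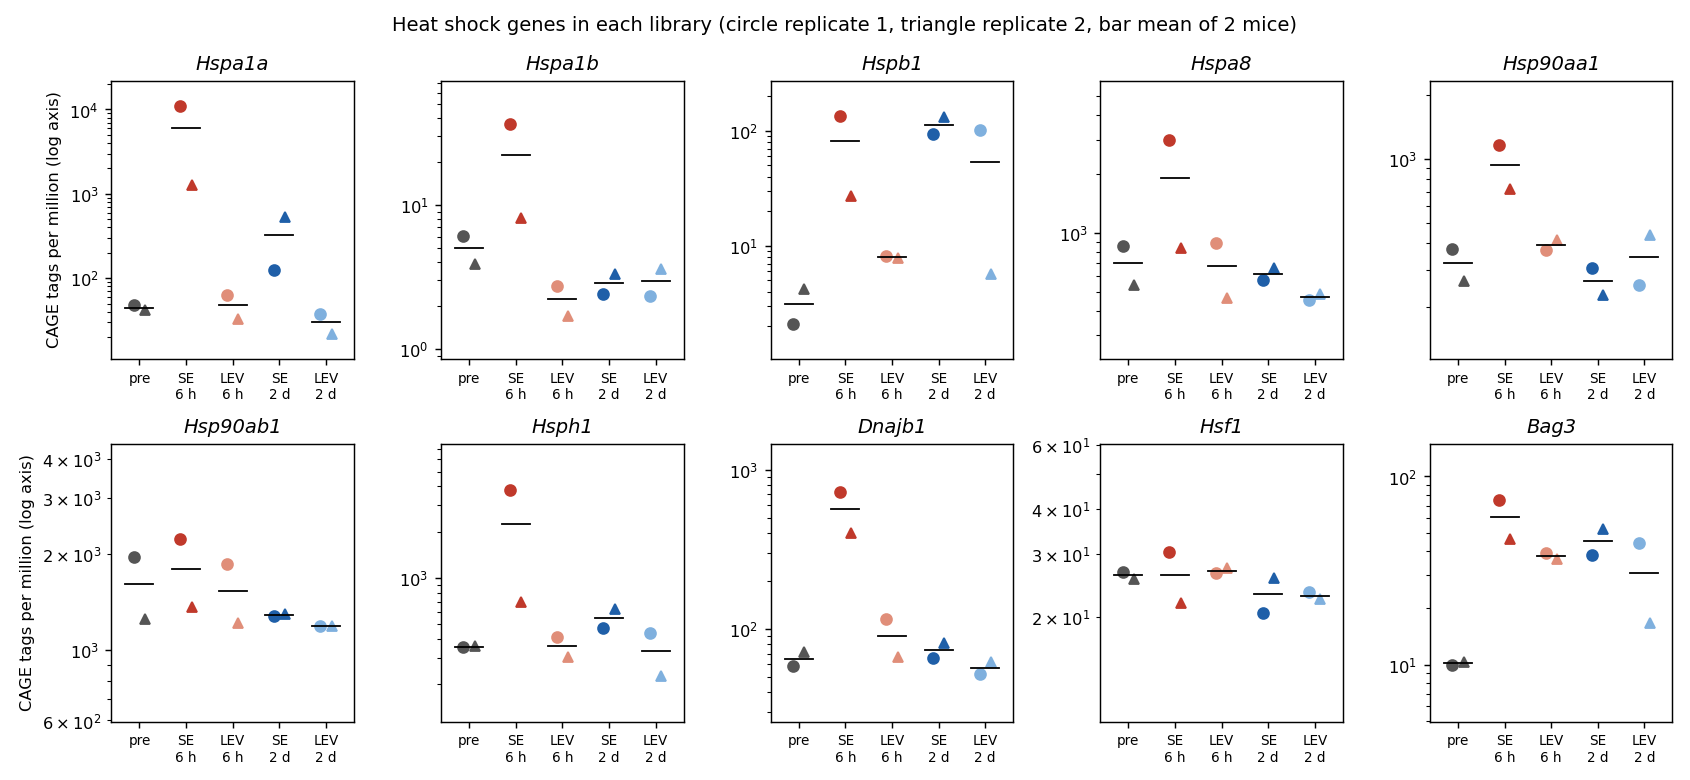
CAGE tags (CPM, log axis) of the 10 genes in each of the 10 mice, by group; circles are replicate 1, triangles replicate 2 and bars the mean of 2 mice. *Hspa1a*, *Hsph1* and *Dnajb1* are highest in the SE 6 h mice, *Hspb1* is high in both SE groups and in 1 of 2 SE + LEV 2 days mice, and *Hsf1* lies between 20.5 and 30.3 CPM throughout.

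The first comparison asks what changed in the early stage after SE. At 6 h, *Hspa1a*, *Dnajb1*, *Bag3* and *Hsp90aa1* rose against pre-SE, 4 of the 10 genes at an adjusted p of at most 0.05 (limma, adjusted over all 15851 genes tested), whereas 2.76% of all genes tested were called higher. None of the 10 was called lower (0.202% of all genes were). On the scale of log2(CPM + 0.1), the logFC of *Hspa1a* was 6.39 (standard error 0.89, limma adjusted p = 0.0054), an estimate of 83.6-fold. The corresponding values were 3.06 (standard error 0.34, adjusted p = 0.0023) for *Dnajb1*, 2.53 (standard error 0.42, adjusted p = 0.011) for *Bag3* and 1.52 (standard error 0.34, adjusted p = 0.042) for *Hsp90aa1*. The median logFC of the 10 genes was 2.00, beside -0.13 for all genes.

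*Hspb1* had a logFC of 4.32 (95% interval 1.86 to 6.77, limma adjusted p = 0.073). The level of *Hsph1* was an estimated 4.59-fold higher (95% interval of the logFC 0.79 to 3.60, limma adjusted p = 0.107), and neither was called. *Hspa1b* (1.79, adjusted p = 0.174) and *Hspa8* (1.21, adjusted p = 0.265) were not called either. The intervals of *Hsp90ab1* (-0.62 to 0.92) and *Hsf1* (-0.57 to 0.54) both included 0. *Hsp90aa1* was no longer called with a pseudocount of 1 (adjusted p = 0.051) or in a limma fit of these 2 groups alone (adjusted p = 0.099), where *Hspb1* was called (adjusted p = 0.036). In 7 of the 10 genes both SE 6 h mice lay above both pre-SE mice, against 18.6% of all genes tested.

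The first SE 6 h mouse had the higher level in all 10 genes. In it, 8 of the 10 genes were at least 1 log2 unit above the pre-SE mean, and in the second mouse 5 were. The log2 ratio of the first mouse to the second was 3.09 for *Hspa1a*, 2.46 for *Hsph1*, 2.31 for *Hspb1*, 2.15 for *Hspa1b* and 1.84 for *Hspa8*, each of which was larger than for at least 99.5% of all genes. Over all genes the SD of this ratio was 0.69. The second mouse held the most choroid plexus marker tags, 4025 against 8.72 CPM in the first, and 6473 against 3407 CPM of oligodendrocyte and 5874 against 8722 CPM of neuronal markers, and the part of these differences in the result was not tested. Without the first SE 6 h mouse the logFC of *Hspa1a* was 4.84 and that of *Dnajb1* 2.62, and without the second they were 7.93 and 3.49. For *Hsph1* these values were 0.97 and 3.43, and for *Hspb1* 3.16 and 5.475. The calls of *Bag3* and *Hsp90aa1* did not hold in every fit with 1 mouse left out. Fewer of all genes were called in each of these fits too.

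**Figure D2:**
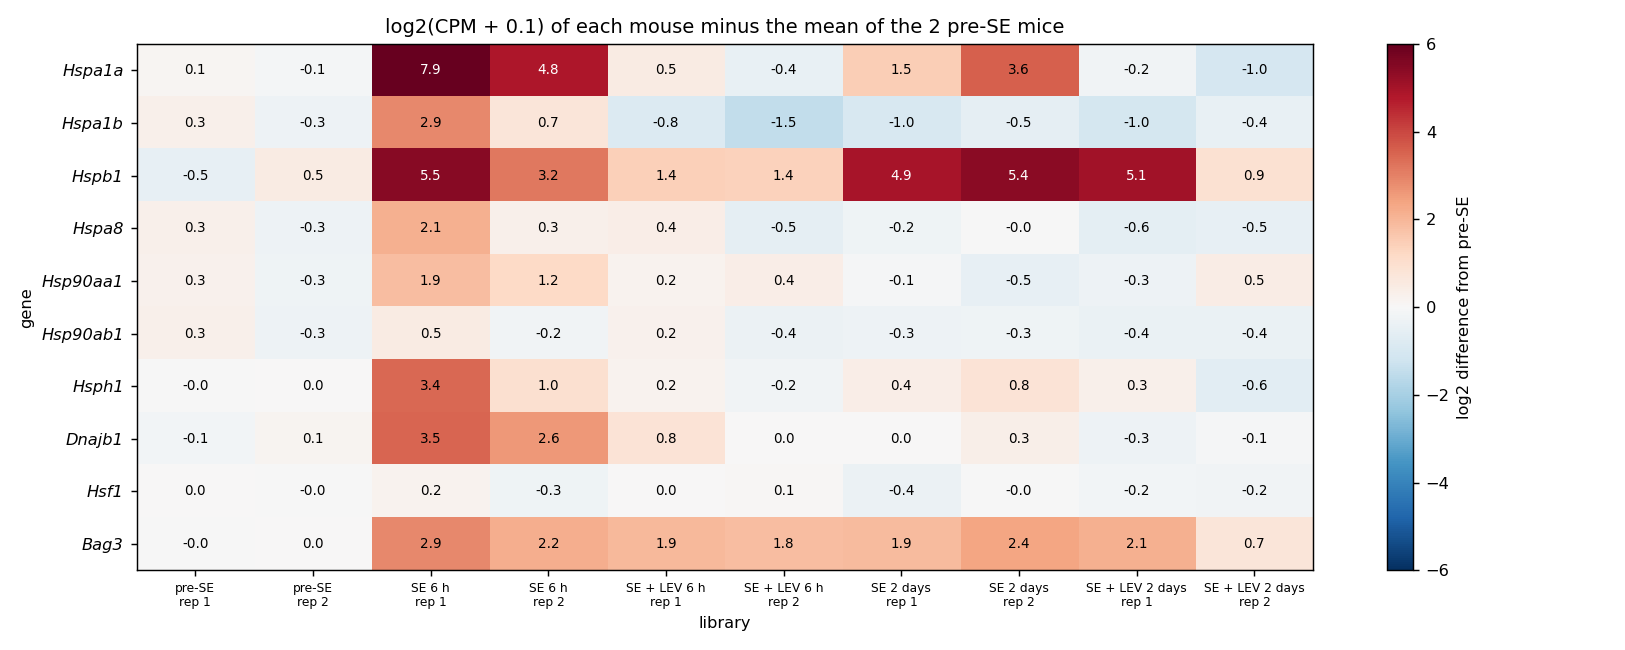
Difference of each mouse from the mean of the 2 pre-SE mice in log2(CPM + 0.1), with genes in rows, mice in columns and the value in each cell (red higher, blue lower, colour range -6 to 6). In the first SE 6 h mouse 8 of 10 genes are at least 1 unit above the pre-SE mean, in the second 5, and *Bag3* and *Hspb1* are above it in all 8 mice after SE.

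At 2 days after SE fewer of the genes differed from pre-SE, and *Hspb1* took the lead. *Hspb1* rose (logFC 5.19, standard error 1.10, limma adjusted p = 0.023), as did *Bag3* (2.14, standard error 0.42, adjusted p = 0.015). These were 2 of the 10 genes, while 5.07% of all genes tested were called higher. *Hspa1a* had a logFC of 2.54 (95% interval 0.56 to 4.52, adjusted p = 0.142) and was not called. The other 7 had logFC between -0.77 and 0.62, and the median of the 10 was 0.02 (all genes -0.03). In 4 of the genes the SE 2 days mice each exceeded every pre-SE mouse, against 26.3% of all genes. Neither call held in every repeat with 1 mouse left out. Over these repeats the logFC ran from 4.695 to 5.675 for *Hspb1* and from 1.915 to 2.36 for *Bag3*, and fewer of all genes were called in each.

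Between the times, 4 of the 10 genes fell from 6 h to 2 days after SE, and 1.11% of all genes tested were called lower. These were *Dnajb1* (logFC -2.88, standard error 0.34, limma adjusted p = 0.0028), *Hsp90aa1* (-1.79, standard error 0.34, adjusted p = 0.017), *Hspa1a* (-3.85, standard error 0.89, adjusted p = 0.040) and *Hspa1b* (-2.56, standard error 0.62, adjusted p = 0.048). *Hspb1* had a logFC of 0.87 (95% interval -1.59 to 3.32) and *Bag3* of -0.39 (-1.32 to 0.54), so that neither the same level nor a change could be shown for these. With 1 mouse left out at a time, the logFC ran from -3.31 to -2.44 for *Dnajb1* and from -2.13 to -1.44 for *Hsp90aa1*. It ran from -5.39 to -2.30 for *Hspa1a* and from -3.63 to -1.48 for *Hspa1b*. Of these calls only that of *Dnajb1* held in every such fit. In a limma fit of these 2 groups alone *Hspa1a* (adjusted p = 0.074) and *Hspa1b* (adjusted p = 0.070) were not called, nor was *Hspa1b* with a pseudocount of 1 (adjusted p = 0.055).

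LEV was given to ask whether it prevents changes after SE. At 6 h, 7 of the 10 genes had both SE + LEV mice below both SE mice (13.4% of all genes tested), and the median logFC of the 10 was -1.75, beside 0.04 for all genes. None of the 10 was called by limma, and only 2 genes of the whole table (0.0126%) were called lower. At an unadjusted p under 0.05, 7 of the 10 genes were lower, as were 3.42% of all genes. *Dnajb1* (logFC -2.62, standard error 0.34, adjusted p = 0.051) and *Hspa1a* (-6.35, standard error 0.89, adjusted p = 0.066) came nearest to the threshold. The logFC of *Hspa1b* was -2.92 (adjusted p = 0.249), of *Hspb1* -2.90 (adjusted p = 0.962), of *Hsph1* -2.20 (adjusted p = 0.638), of *Hspa8* -1.30 and of *Hsp90aa1* -1.22 (adjusted p = 0.613).

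*Bag3* had the smallest difference among the genes that rose at 6 h. Its logFC between SE + LEV and SE at 6 h was -0.64 (95% interval -1.57 to 0.28), and both SE + LEV 6 h mice were still above both pre-SE mice. Without SE 6 h replicate 2, the mouse with the lower levels, the logFC was -7.90 for *Hspa1a*, -4.00 for *Hspa1b*, -3.43 for *Hsph1* and -3.05 for *Dnajb1*. Without SE 6 h replicate 1 the values of these genes were -4.81, -1.85, -0.97 and -2.185. The size of the difference thus depended on which SE 6 h mouse was kept. With all mice, *Dnajb1* was called by limma with a pseudocount of 0.5 (adjusted p = 0.047) or 1 (adjusted p = 0.043).

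The SE + LEV 6 h mice lay near the pre-SE mice for most of the genes. None of the 10 was called between these groups (0.315% of all genes were called higher, and 1 of the 10 was higher at an unadjusted p under 0.05, as were 5.53% of all genes). The logFC of *Hspa1a* against pre-SE was 0.03, but its 95% interval, from a spread pooled over all 5 groups, ran from -1.95 to 2.01. *Bag3* had the largest value, 1.89 (95% interval 0.96 to 2.81, limma adjusted p = 0.118). *Hspb1* followed with 1.42 (-1.04 to 3.87), and *Hspa1b* had a logFC of -1.13 (-2.51 to 0.25).

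At 2 days, none of the 10 genes and none of the 15851 genes tested was called between SE + LEV and SE by limma. *Hspa1a* had the lowest logFC, -3.16 (95% interval -5.14 to -1.17), and was the only one of the 10 at an unadjusted p under 0.05, beside 1.39% of all genes that were lower. *Hspb1* followed with -2.20 (-4.66 to 0.25), and its SE + LEV mice, at 101 and 5.63 CPM, had a log2 ratio of 4.14 that was larger than for 99.9% of all genes. These mice had microglial markers of 1161 and 919 CPM and astrocyte markers of 4721 and 4670 CPM, and choroid plexus markers of 1507 and 27.0 CPM, whose part in the spread was not tested. In 5 of the 10 genes both SE + LEV 2 days mice were below both SE mice (12.2% of all genes).

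Against pre-SE, none of the 10 was called in SE + LEV 2 days mice (2.83% of all genes were called higher). *Hspb1* had a logFC of 2.98 (adjusted p = 0.298) and *Bag3* of 1.42 (adjusted p = 0.143), the 2 genes of the 10 at an unadjusted p under 0.05 (8.86% of all genes were higher). Without SE + LEV 2 days replicate 2 the logFC of *Hspb1* was 5.05 and that of *Bag3* 2.12, and without replicate 1 they were 0.91 and 0.71. The difference between the LEV effects at 2 days and at 6 h was called for none of the 10 genes and for none in the table. It was positive, that is, a higher logFC at 2 days than at 6 h, at an unadjusted p under 0.05 for *Dnajb1* (2.25, standard error 0.48), *Hspa1b* (2.96, standard error 0.88), *Hsp90aa1* (1.56, standard error 0.48) and *Hspa1a* (3.20, standard error 1.26), beside 1.58% of all genes. The logFC of SE 2 days against pre-SE was 0.18 for *Dnajb1*, -0.77 for *Hspa1b*, -0.26 for *Hsp90aa1* and 2.54 for *Hspa1a*. None of these genes was called higher in SE 2 days than in pre-SE mice (5.07% of all genes tested were). At 2 days SE + LEV was not lower than SE for *Hspa1b* (0.04) or *Hsp90aa1* (0.34). Time after SE and the number of LEV doses (1 or 5) cannot be told apart here. The comparison against pre-SE and that against SE + LEV share the SE mice, so a high value in 1 of these enters both.

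**Figure D3:**
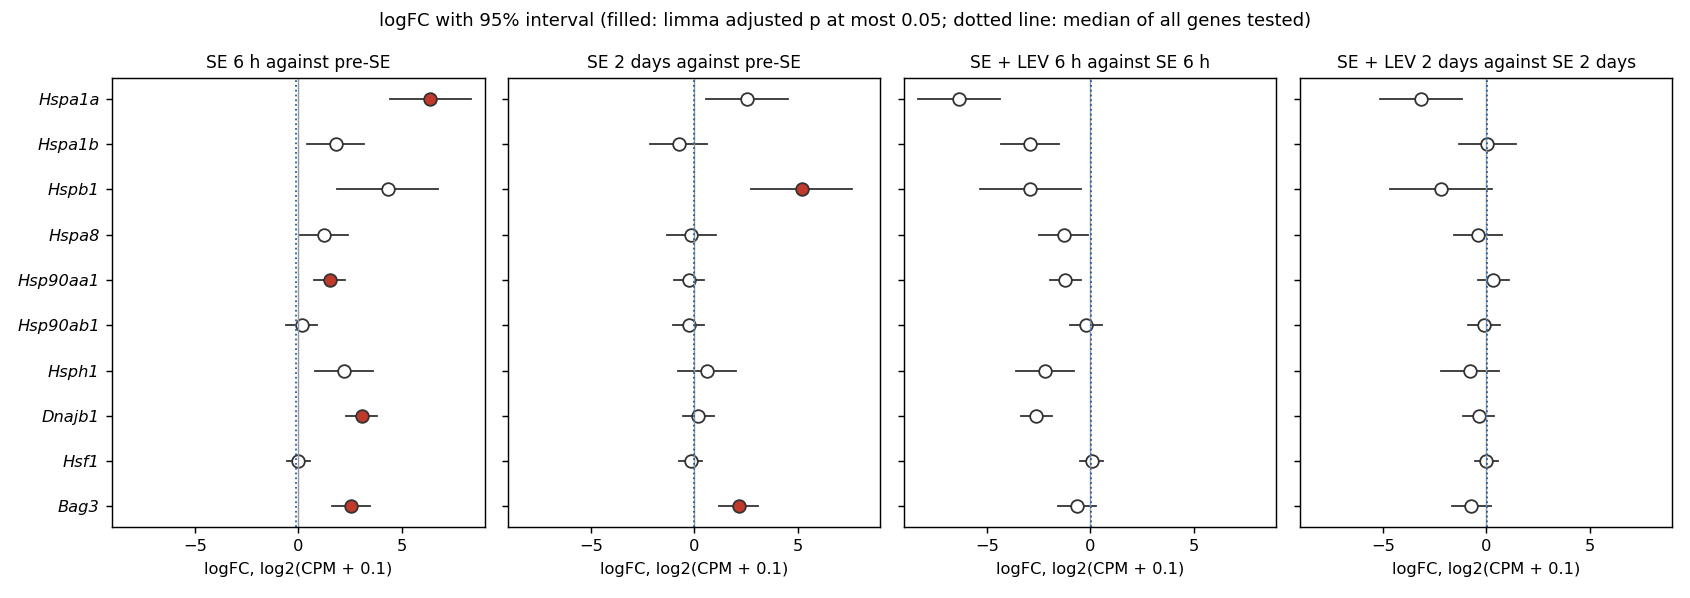
logFC on log2(CPM + 0.1) of the 10 genes in 4 comparisons, with 95% intervals from limma; filled points have an adjusted p of at most 0.05 and the dotted line is the median of all genes tested. There are 4 filled points at 6 h and 2 at 2 days against pre-SE and none for SE + LEV against SE.

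The abundant chaperones were also read at copies elsewhere in the genome. Gm5844 is 98.5% identical to *Hsp90aa1* and Gm12346 99.5%. Gm5844 held more tags than *Hsp90aa1* in every mouse, with 762 and 591 CPM in pre-SE, 2514 and 1501 CPM in SE 6 h, and 605 to 762 CPM in the 6 other mice. Gm12346 was at 19.5 and 16.4 CPM in pre-SE and 54.1 and 63.2 CPM in SE 6 h mice. Both copies were higher at 6 h, with logFC of 1.53 (limma adjusted p = 0.020) and 1.71 (adjusted p = 0.034), beside 1.52 for *Hsp90aa1* itself. The *Hspa8* copies Gm8355 (98.5% identical) and Gm15459 (99.5% identical) had means of 444 and 334 CPM over the 10 mice and logFC of 1.22 (adjusted p = 0.102) and 1.11 (adjusted p = 0.237) at 6 h, beside 1.21 for *Hspa8*. Some annotated 5′ ends of *Hsp90aa1* match these copies at 75 of 75 bases, and those of *Hspa8* at 73 of 75. Tags of parent and copy therefore cannot be assigned with certainty. With the copies added to their parents, *Hsp90aa1* had a logFC of 1.53 (adjusted p = 0.028) and *Hspa8* of 1.20 (adjusted p = 0.217), and the number of the 10 genes called was the same in all 8 comparisons. The copy of *Hspb1*, Hsp25-ps1, had a mean of 0.095 CPM.

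**Figure D4:**
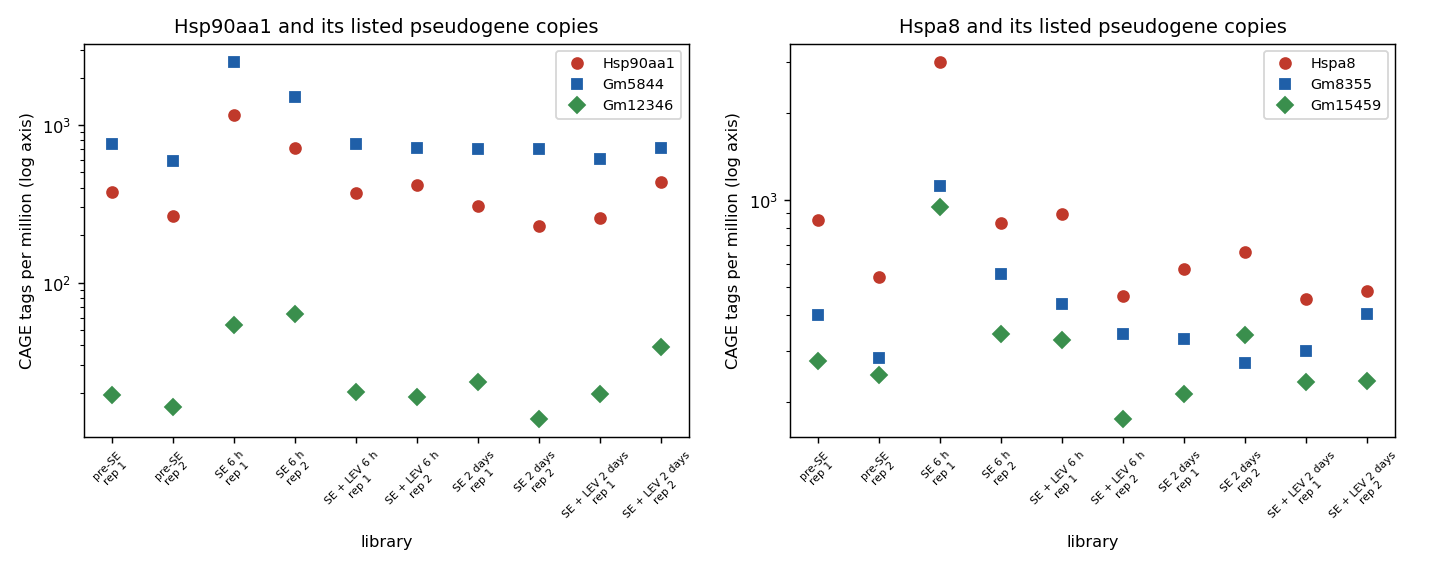
CAGE tags (CPM, log axis) of *Hsp90aa1* and *Hspa8* (circles) and of their listed pseudogene copies (squares and diamonds) in each of the 10 mice. Gm5844 lies above *Hsp90aa1* in every mouse, and each of the 6 genes has its highest value in an SE 6 h mouse, 2997 CPM for *Hspa8*.

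Of 60 further chaperone genes in 7 lists, 58 were tested. At 6 h, 3 of the 58 rose (2.76% of all genes were called higher) and none fell (0.202% of all genes did): *Hspb3*, a small heat shock protein (logFC 2.78, limma adjusted p = 0.042), and the HSP40 genes *Dnaja1* (1.34, adjusted p = 0.025) and *Dnajb5* (1.01, adjusted p = 0.026). *Dnaja1* was at 332 and 440 CPM in pre-SE and 1088 and 856 CPM in SE 6 h mice. The median logFC of the 58 was 0.06, beside -0.13 for all genes. None of the 10 chaperonin genes, the 19 further cochaperones, the 8 further HSP70 genes tested, the 2 further HSP90 genes or the 2 further heat shock factors was called.

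At 2 days, 3 of the 58 rose, a share close to the 5.07% of all genes called higher. All 3 were among the 5 small heat shock proteins tested, the list of *Hspb1*. *Hspb6* was at 1.28 and 2.36 CPM in pre-SE and 26.5 and 21.1 CPM in SE 2 days mice (logFC 3.69, limma adjusted p = 0.0036). *Hspb3* (3.40, adjusted p = 0.011) and *Hspb8*, the partner of BAG3 in chaperone-assisted autophagy (2.04, adjusted p = 0.028), also rose. *Hspb8* was at 12.3 and 15.7 CPM in pre-SE, 51.0 and 65.2 CPM in SE 2 days and 61.0 and 25.3 CPM in SE + LEV 2 days mice. The fourth, *Cryab*, had 1 SE 2 days mouse at 239 CPM and another at 111 CPM, against 89.1 and 78.0 CPM in pre-SE, and was not called (logFC 0.96, limma adjusted p = 0.195). The fifth, *Hspb2*, was not called either (logFC -0.05, limma adjusted p = 0.971). *Hspb6* was also called in SE + LEV 2 days against pre-SE (3.37, adjusted p = 0.0083). From 6 h to 2 days after SE, 2 of the 58 rose, a share close to the 3.14% of all genes called higher. These were *Hspb6* (2.66) and the chaperonin subunit *Cct7* (0.89). *Dnaja1* fell (-1.38), 1 of the 58, and 1.11% of all genes were called lower. The astrocyte markers, of which 8 were listed, summed to 2738 to 3278 CPM in pre-SE and 3837 to 5210 CPM in SE 2 days mice, but 2 of the 8 were called higher, none lower, and their median logFC was -0.47. Their part in the values of *Hspb1*, *Hspb3*, *Hspb6* and *Hspb8* was not tested.

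None of the 58 was called between SE + LEV and SE at either time by limma, with 5 lower at an unadjusted p under 0.05 at 6 h (3.42% of all genes were lower) and 1 lower at 2 days (1.39% of all genes). The largest values at 6 h were those of *Hspb3* (-2.52), of *Hspe1*, the mitochondrial cochaperonin (-1.22), and of *Dnaja1* (-1.02). At 2 days they were those of *Hspb3* (-1.28), *Hspb8* (-0.55) and *Cct7* (-0.51).

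**Figure D5:**
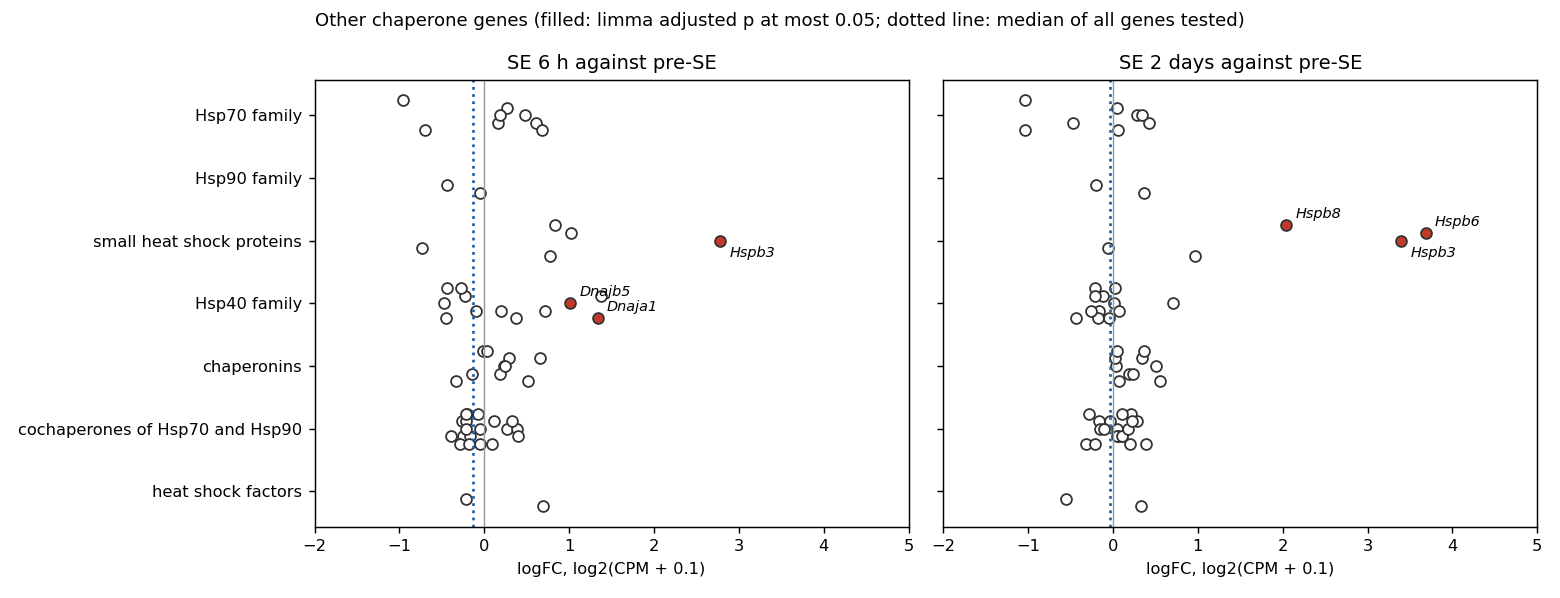
logFC on log2(CPM + 0.1) of 58 further chaperone genes, by list, at 6 h (left) and 2 days (right) after SE against pre-SE; filled, named points have an adjusted p of at most 0.05 and the dotted line is the median of all genes tested. *Hspb3*, *Dnaja1* and *Dnajb5* are filled at 6 h, and *Hspb6*, *Hspb3* and *Hspb8* at 2 days.

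The genes whose pattern was most like that of each member were sought among 11973 genes with a mean of at least 5 CPM, by Pearson's r of log2(CPM + 0.1) over the 10 libraries. These share groups and tissue makeup, so r is a description only. *Hspa1a* and *Hsph1* were among the 3 most alike genes of each other (r = 0.94). The gene most like *Hsph1* was Gm12141 (r = 0.98), a pseudogene copy of the chaperonin gene *Hspd1* with 113 and 21.3 CPM in SE 6 h mice and 6.93 to 16.8 CPM in the other 8. The genes most like the others were *Usp36* for *Dnajb1* (0.98), *Stk17b* for *Hspb1* (0.99), *Slc6a8* for *Bag3* (0.98), Gm8355 for *Hsp90aa1* (0.96), *Tmod1* for *Hspa8* (0.96), *Ikzf5* for *Hsp90ab1* (0.96), *Rassf1* for *Hspa1a* (0.95), *Samd14* for *Hsf1* (0.94) and *Bmpr1b* for *Hspa1b* (0.93). Among the members, r of *Hspb1* was 0.84 with *Bag3*, 0.63 with *Hsph1*, 0.62 with *Hspa1a*, 0.36 with *Dnajb1* and 0.10 with *Hsp90aa1*.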

How the data were processed

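The authors made CAGE libraries from hippocampal total RNA, sequenced single reads of 75 bases and mapped them to mm9 with BWA 0.7.17, then the remainder with HISAT2 2.0.5. They clustered tags with the RECLU pipeline, dropped clusters under 0.1 CPM, kept regions shared by replicates (BEDtools 2.12.0) and tested with edgeR 3.22.5. The deposited values are CPM per gene and library. The step from clusters to genes is not given in the sources used here. All 15900 identifiers matched the annotation.

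Differences in log2(CPM + 0.1) were tested with limma 3.58.1 (R 4.3.3) in a single fit of 5 group means and 10 libraries with a mean-variance trend. Tests were two-sided, with Benjamini-Hochberg adjustment across 15851 genes that reached 0.1 CPM in 2 or more libraries, and an adjusted p no larger than 0.05 made a call. The fit was run on simulated libraries in which all genes had the same spread between mice beyond counting noise. The wide spread between the SE 6 h mice was not reproduced there, so calls that rest on it were not checked. The numbered replicates were read as separate mice, and p-values measure their spread within groups, pooled over all 5 groups. In the single fit a gene therefore has the same standard error in every comparison of 2 groups, whichever groups these are. With 2 mice against 2, an exact permutation test could not go below p = 0.333. The 10 genes, the lists and the naming rule were chosen with earlier results of these data known. All members were named, as were further chaperone genes called for SE against pre-SE or SE + LEV against SE, or otherwise the 3 of largest absolute logFC. Those called between the times, *Cryab*, *Hspb2* and the pseudogene copies were named after their values were seen. Copies were sought with BLAST+ 2.17.0 at 95% identity over at least 200 bases. Alternatives were other pseudocounts, filters and scaling, a replicate block, fits of the compared groups only, summed copies and each mouse left out.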

Additional observations from a re-analysis of the deposited data

Results flagged for a closer look

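The effect of SE against pre-SE differed between 2 days and 6 h for 4 of the 10 genes. This is the limma test of SE 2 days against SE 6 h given above, in which 1.11% of all genes tested were called lower. *Hspa1a* and *Hspa1b* were not called with a replicate block or in a fit of these 2 groups alone. The effect at 2 days minus that at 6 h was -3.85 for *Hspa1a*, -2.56 for *Hspa1b*, -1.79 for *Hsp90aa1* and -2.88 for *Dnajb1* on the log2(CPM + 0.1) scale, and lower in both SE 2 days mice for each. *Hspa1b* was also below both pre-SE mice at 2 days (logFC -0.766, limma adjusted p = 0.564), opposite to its direction at 6 h.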

How the results depend on the processing

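The number of the 10 genes called was within 1.5 times its value, or still 0, in all comparisons with other low-value filters, median-of-ratios scaling, *Hspa1a* and *Hspa1b* summed, and pseudogene copies summed (an alternative chosen after seeing the data). For SE + LEV 6 h against SE 6 h it went from 0 to 1 with a pseudocount of 0.5 or 1. For SE 2 days against SE 6 h it went from 4 to 2 with a fit of only the groups compared. Tests on tag counts (a quasi-likelihood and a negative binomial test) were planned and not run. In only 3 of 10 libraries did 95% of the low values lie close to whole tags, a check that rounding of the values can fail. Within rounding, at least 99.96% of all values were whole tags in every library.

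With 1 mouse left out at a time, in fits that assume a lone mouse to vary like the other groups, the number called ran from 2 to 5 for SE 6 h and from 0 to 1 for SE 2 days against pre-SE. It ran from 0 to 4 for SE + LEV 6 h against SE 6 h, 0 to 2 for SE + LEV 2 days against pre-SE and 1 to 6 for SE 2 days against SE 6 h. It was 0 throughout for the other 3 comparisons.

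The replicate numbers were read as naming different mice, and the labels do not say whether same-numbered mice shared a day or batch. With a replicate block the count for SE 2 days against SE 6 h was 2 (without *Hspa1a* and *Hspa1b*, limma adjusted p = 0.056 and 0.058) and that for SE 6 h against pre-SE 3 (without *Hsp90aa1*, limma adjusted p = 0.058). It changed no other count, and the correlations of same-numbered mice ran from -0.436 to 0.344 over the comparisons, the highest for SE 6 h against pre-SE.

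Median-of-ratios scaling moved the median of all genes at 6 h against pre-SE by 0.125, and the direction of uncalled genes near 0 changed: *Hsf1* for SE 6 h against pre-SE (0.108), *Hspa1b* for SE + LEV 2 days against SE 2 days (-0.012), and *Hsp90ab1* (0.0073) and *Hsph1* (0.066) for SE + LEV 6 h against pre-SE. *Hspa1a* summed with *Hspa1b* had -0.050 in the last comparison.

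Leaving out 1 mouse also turned the direction of genes that were not called either way, with these ranges of logFC. For SE 6 h against pre-SE these were *Hsp90ab1* (-0.20 to 0.50) and *Hsf1* (-0.25 to 0.21). For SE 2 days against pre-SE these were *Hspa8* (-0.47 to 0.18) and *Hsp90ab1* (-0.61 to 0.036). For SE + LEV 6 h against SE 6 h these were *Hsp90ab1* (-0.57 to 0.14) and *Hsf1* (-0.17 to 0.30). For SE + LEV 2 days against SE 2 days these were *Hspa1b* (-0.27 to 0.34), *Hsp90aa1* (-0.048 to 0.73) and *Hsf1* (-0.16 to 0.16). For SE + LEV 6 h against pre-SE these were *Hspa1a* (-0.44 to 0.51), *Hspa8* (-0.55 to 0.39), *Hsp90ab1* (-0.39 to 0.26) and *Hsph1* (-0.21 to 0.21). For SE + LEV 2 days against pre-SE these were *Hsp90aa1* (-0.31 to 0.46) and *Hsph1* (-0.63 to 0.30). For SE 2 days against SE 6 h these were *Hspb1* (-0.29 to 2.03) and *Hsf1* (-0.40 to 0.066). For the LEV effect at 2 days against LEV effect at 6 h these were *Hspb1* (-1.37 to 2.77), *Hspa8* (-0.025 to 1.82), *Hsp90ab1* (-0.25 to 0.45), *Hsf1* (-0.30 to 0.17) and *Bag3* (-0.78 to 0.63).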
